A study of Mus musculus with 3 samples.

Results

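H3K27me3 domains of 50 kb or more are long stretches of the mouse genome in which regions carrying histone H3 trimethylated on lysine 27 lie close together. They were chosen by the positions of the H3K27me3 regions alone. Regions on the 19 autosomes were merged wherever the free stretch between neighbours, called a gap, was 3 kb or less, and merged spans of at least 50 kb were kept. The rule gave 414 of the 52317 merged domains (0.791%). Everything read from the H3K27me3 list below therefore describes what was selected, and no test was made of it. The H3K4me3 list did not enter the rule.

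H3K27me3 is written by Polycomb repressive complex 2 and marks genes held silent, above all genes of developmental regulators that a cell of that lineage does not use. Polycomb repressive complex 2 also binds the mark it writes, through its subunit EED, which lets the mark spread along chromatin into broad blanket-like stretches. H3K4me3 is found at the start sites of active genes and, together with H3K27me3, at promoters of silent developmental genes, which are called bivalent. In embryonic stem cells such places tend to lie over stretches rich in CpG dinucleotides.

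The marks were mapped by chromatin immunoprecipitation and sequencing in neurospheres, floating cultures on low-attachment plates of cells acutely isolated from the subventricular zone, which lines the lateral ventricles. All mice were wild-type C57BL/6 males, with no treatment named, and the labels give neither their age nor whether animals were pooled. Each mark has 1 library, made with a Millipore antibody, and the input library was not analysed here, so no value has a replicate error. The labels call the cells neural stem cells, which could not be checked because gene expression was not measured in these samples.

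Every interval printed is a 95% interval that covers counting error only: Wilson for a share, Newcombe for a difference of shares and exact Poisson for a density. Neighbouring regions and borders are not independent, so the intervals are too narrow. Depth is unknown, since the lists hold regions and scores but no read counts. The cultures were bulk, so 2 marks at 1 place need not have shared an allele or a cell, and fewer marked cells cannot be told apart from less mark per cell.

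The domains made up a small part of the genome and a larger part of the mark. They spanned 36.2 Mb, or 1.47% of the 2472 Mb of autosomes measured to the last region. They held 28.6 Mb of H3K27me3 regions, which was 19.2% of all autosomal H3K27me3 base pairs, in 11934 of 115609 regions (10.3%). Spans ran from 50.1 to 380 kb with a median of 70.9 kb (quartiles 57.9 and 98.5 kb). Around the threshold the spans were continuous. The last 3 domains left out spanned 49936, 49954 and 49976 bp, and the first 3 kept spanned 50054, 50072 and 50151 bp.

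No domain was a single unbroken region. The covered share, meaning the percentage of a domain's span that lay in H3K27me3 regions, had a median of 78.0% (quartiles 70.8 and 83.8%, from 52.8 to 97.5%). In domains of 10 to 50 kb, of which there were 4009, the median was 65.3%. At least 80% of the span was covered in 171 domains (41.3%) and at least 90% in 24 (5.80%). The median rose with length, from 72.8% in the 130 domains of 50 to 60 kb to 81.6% in the 71 of 100 to 150 kb and 86.8% in the 31 of 150 kb or more.

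**Figure D1:**
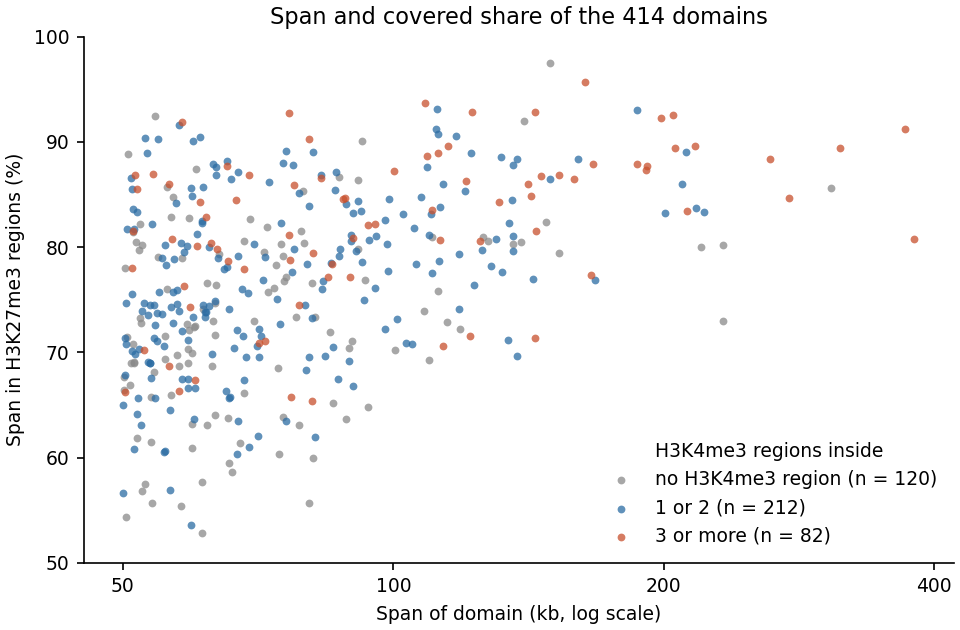
Each point is 1 of the 414 domains, placed by its span (kb, log scale) and by the percentage of that span in H3K27me3 regions, and coloured by the number of H3K4me3 regions inside. Covered shares run from 52.8 to 97.5%, the lowest are among the shorter domains, and domains without H3K4me3 are found up to 307.1 kb.

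A domain was built from 9 to 115 H3K27me3 regions, with a median of 26. Its widest region had a median width of 8.75 kb and filled a median of 11.2% of the span. A single region filled at least 50% of the span in 2 domains. The regions of the domains were wider than other autosomal H3K27me3 regions, with medians of 1431 and 855 bp. More of them reached the top score, 9.49% (1133 of 11934) against 1.77% (1837 of 103675). The score is the value deposited with each region. Scores pile up at 3100, and 3100 or above is called the top score here. The domains held 38.1% of the 2970 autosomal H3K27me3 regions at the top score. At least 1 such region was present in 329 domains (79.5%), against 25.4% of the domains of 10 to 50 kb. A longer domain holds more regions, and so has more room for 1 at the top score.

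The mark thinned toward the borders. Each domain was folded at its middle and cut into 5 parts of equal length, from the outermost next to the borders to the innermost at the middle. H3K27me3 regions covered 73.0, 78.7, 80.4, 80.7 and 81.6% of these parts in that order. Region widths had medians of 1189.5 bp in the outermost part and 1497 to 1553 bp in the other 4. The share of regions at the top score was 3.91% in the outermost part and 9.92 to 12.0% further in. The very last region at each border had a median width of 1081 bp and 3.50% were at the top score, against 1467 bp and 9.94% for the other regions of the domains. A border lies at the end of a region by construction, and the part of the merging rule in this order was not tested. In domains of 10 to 50 kb cover was highest in the outermost part, at 73.4% against 61.5 to 67.8% further in.

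The gaps took up 7.64 Mb, or 21.1% of the span, in 11520 pieces. Most were short. Their median length was 399.5 bp (quartiles 147 and 961 bp), and the longest was 2994 bp, just under the limit the rule sets. Gaps of 1 kb or more made up 23.8% of the gaps and 61.6% of the gap base pairs. All domains but 1 had such a gap. The longest gap of a domain had a median of 2486.5 bp, and 339 domains (81.9%) had a gap of at least 2 kb.

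The extremes of cover differed in how the gaps were spread. The most fully covered domain lay on chromosome 6 from 114439561 to 114588811 (all positions are on mm9, counted from 1). Its 34 regions covered 97.5% of 149.3 kb, its longest gap was 351 bp, and it held no H3K4me3 region. The second, on chromosome 8 from 125136697 to 125300084, was covered over 95.7% of 163.4 kb and held 3 H3K4me3 regions. The least covered was on chromosome 4 from 124238117 to 124299364, where 29 regions covered 52.8% of 61.2 kb and no region was wider than 3.06 kb. The next lowest, on chromosome 4 from 129907847 to 129967403 and on chromosome 7 from 150485452 to 150535868, were covered over 53.6 and 54.4% and had no H3K27me3 region at the top score.

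H3K4me3 regions lay inside most domains but were few in each. At least 1 H3K4me3 region shared 1 bp or more with 294 of the 414 domains, or 71.0% (66.5 to 75.2%). The background share over all 52317 autosomal domains, most of them short, was 11.8%, and a longer domain has more room for an H3K4me3 region. Among domains of 10 to 50 kb the share was 39.4% (1579 of 4009), so the difference was 31.6 percentage points (26.8 to 36.1). None was found in 120 domains, 1 in 139, 2 in 73, and 3 or more in 82. The highest counts were 17 and 11.

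Per length, H3K4me3 regions were sparser in long domains than in shorter ones. Counted by midpoint, the domains held 16.5 H3K4me3 regions per Mb (15.2 to 17.8), against 25.6 per Mb (24.5 to 26.7) in domains of 10 to 50 kb and 8.54 per Mb over the autosomes. Within the 414, domains of 50 to 60 kb had 21.3 per Mb and those of 60 to 75 kb had 17.7, while 75 to 100 kb gave 18.2, 100 to 150 kb gave 14.8 and 150 kb or more gave 10.4. Without the domain with 17 H3K4me3 regions, which spanned 76.5 kb, the class of 75 to 100 kb had 16.1 per Mb in 86 domains. The share of domains with any H3K4me3 went the other way, from 64.6% in the shortest of these classes to 83.9% in the longest. Long domains thus held an H3K4me3 region more often while having fewer of them per Mb.

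The H3K4me3 regions inside were mostly low in score and narrow. Of the 615 different H3K4me3 regions that touched a domain, 134 were at the top score of their list, or 21.8% (18.7 to 25.2%). Over all autosomal H3K4me3 regions the share was 53%. Outside the domains it was 53.9%, and the difference was -32.1 points (-35.3 to -28.6). In domains of 10 to 50 kb the share was 29.4% (27.5 to 31.3%), a difference of -7.59 points (-11.2 to -3.68). The median width was 1460 bp inside and 2019 bp elsewhere on the autosomes. This gap in width went with the mix of scores, since inside regions below the top score had a median of 1262 bp against 1119 bp elsewhere, and those at the top score 2944.5 bp against 2778 bp.

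Split by score, the densities lay on opposite sides of the autosomal mean, and both were below those of domains of 10 to 50 kb. Inside, top-score H3K4me3 regions numbered 3.29 per Mb (2.72 to 3.93), below the autosomal 4.52 per Mb and the 6.73 per Mb of domains of 10 to 50 kb. Lower-score regions had a density of 13.2 per Mb (12.0 to 14.4), against 4.01 per Mb over the autosomes and 18.8 per Mb in domains of 10 to 50 kb. A top-score H3K4me3 region was present in 113 domains (27.3%), and 181 domains (43.7%) held lower-score ones only.

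Domains with and without H3K4me3 also differed in their own mark. The 120 without any had a median span of 63.7 kb and a median covered share of 73.0%, and 60.8% (51.9 to 69.1%) of them had a top-score H3K27me3 region. The 181 with only lower-score H3K4me3 had medians of 70.6 kb and 79.2%, and 86.2% (80.4 to 90.5%) had a top-score H3K27me3 region. The 113 with a top-score H3K4me3 region had medians of 81.1 kb and 79.6%, and 88.5% (81.3 to 93.2%) had one. Span moved with this order, so the groups were also set side by side within 50 to 75 kb, where their median spans were 58.2 to 59.1 kb. There 53.2% (42.2 to 64.0%) of the 77 without H3K4me3 had a top-score H3K27me3 region, against 77.8% (68.6 to 84.8%) of the 99 with lower-score and 75.5% (61.9 to 85.4%) of the 49 with top-score H3K4me3. The last interval overlaps the first. The covered shares there lay closer together, with medians of 71.6, 74.5 and 74.5%.

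At the scale of single regions, H3K4me3 lay mostly on H3K27me3 regions, and on wide ones. The 686 H3K27me3 regions of the domains that touched H3K4me3 had a median width of 4021.5 bp, and 49.6% were at the top score. The 11248 that did not had a median of 1374 bp, and 7.05% were at the top score. A wider region has more room for an overlap. H3K27me3 covered at least 50% of 554 of the 616 pairs of a domain and an H3K4me3 region (89.9%), and all of the H3K4me3 region in 331 (53.7%). H3K4me3 took up 3.57% of the covered base pairs and 1.58% of the gap base pairs.

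Few gaps held H3K4me3. It was found in 292 of the 11520 gaps, or 2.53% (2.26 to 2.84%), and in 29 of the 801 gaps of 2 kb or more (3.62%). A top-score H3K4me3 region touched 29 of the 2744 gaps of 1 kb or more (1.06%). Of the 596 H3K4me3 midpoints that fell inside a domain, 72 lay in a gap, or 12.1% (9.70 to 14.9%), while gaps made up 21.1% of the span. Among top-score H3K4me3 regions 23 of 119 midpoints lay in a gap (19.3%), and among lower-score ones 49 of 477 (10.3%), a difference of 9.06 points (2.25 to 17.4). The interval of the top-score share (13.2 to 27.3%) takes in the 21.1% of span in gaps, and that of the lower-score share (7.86 to 13.3%) lies below it. Lower-score regions were wholly covered by H3K27me3 in 62.1% of cases and top-score regions in 29.4%. Top-score regions are wider, and the part of width in these shares was not tested.

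Within the domains the H3K4me3 regions were spread from border to middle with no strong preference for either. From the outermost to the innermost part, the 596 midpoints numbered 113, 146, 112, 106 and 119, where an even spread would put 20% in each. The outermost part held 18.96% (16.02 to 22.3%) and the innermost 19.97% (17.0 to 23.4%), both of whose intervals take in 20%. The next-to-outermost part held 24.5% (21.2 to 28.1%), the only one whose interval lay above 20%. In the 137 domains with 1 H3K4me3 region whose midpoint fell inside, the counts were 20, 30, 33, 27 and 27.

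The share of H3K4me3 regions at the top score was lower toward the middle. From the outermost to the innermost part, 25.7, 21.9, 22.3, 16.04 and 13.4% were at the top score, which was 29, 32, 25, 17 and 16 regions. The interval ran from 18.5 to 34.4% in the outermost part and from 8.45 to 20.7% in the innermost, so the ends of the order overlap. In density, top-score regions went from 4.003 to 2.21 per Mb and lower-score regions from 11.6 to 14.2 per Mb. The H3K27me3 cover of the same parts went from 73.0 to 81.6%, and its part in the order of the scores was not tested.

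**Figure D2:**
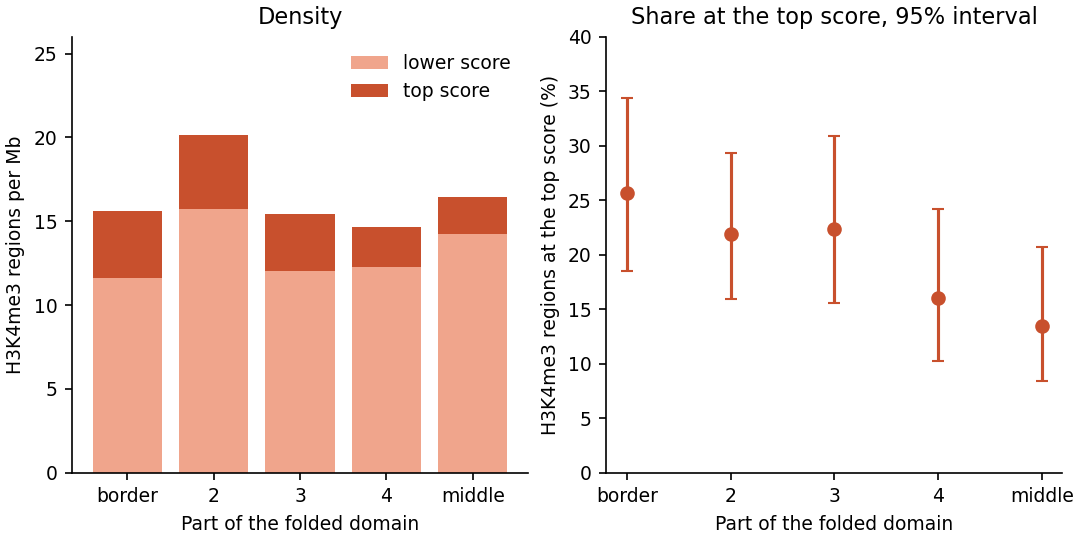
Domains were folded at the middle and cut into 5 equal parts, from the border to the middle. The left panel gives H3K4me3 midpoints per Mb, with lower-score regions below and top-score regions stacked on them, and the right panel gives the percentage at the top score with its 95% Wilson interval (25.7% at the border, 13.4% at the middle).

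Domains with many H3K4me3 regions did not all look alike. A domain of 108.4 kb on chromosome 6, from 52096340 to 52204764, held 7 H3K4me3 regions of 927 to 2652 bp, and 1 was at the top score. H3K27me3 covered 6 of the 7 wholly and 98.1% of the other, and 14 of its 19 H3K27me3 regions were at the top score. No H3K4me3 region lay in the 50 kb on either side of it. A domain of 142.2 kb on chromosome 11, from 118793813 to 118935984, held 6, of which 2 were at the top score. These 2 were covered over 80.4 and 44.9%, all 6 lay in the right part of the domain, and the stretch of 89.7 kb before them was free of H3K4me3. A domain of 87.9 kb on chromosome 1, from 74920691 to 75008546, also held 6, none at the top score. In all, 6 domains had 6 H3K4me3 regions, and these were the 2 longest of them.

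The 2 domains with the highest number of H3K4me3 regions had much of their span in H3K4me3. On chromosome 11 from 3023299 to 3099830, H3K4me3 regions covered 96.2% of 76.5 kb in 17 regions, while H3K27me3 covered 92.8%. On chromosome 7 from 67003081 to 67053407, 11 H3K4me3 regions covered 39.3% of 50.3 kb, none of them was at the top score, and none of the 20 H3K27me3 regions was either. By H3K4me3 cover a domain on chromosome 8 from 126060716 to 126175786, at 78.4% in 5 regions, lay between them. The chromosome 11 domain, and 5 other domains that include this chromosome 8 domain, held an H3K4me3 region whose ends both lay within 100 bp of the ends of an H3K27me3 region. What gives the shared ends was not tested. These 6 domains held 31 H3K4me3 regions. Without them, H3K4me3 was found in 70.6% of domains, its density was 15.8 per Mb, 21.4% of its regions were at the top score, and the outermost and innermost parts held 18.4 and 20.4%. H3K4me3 then took up 3.02% of the covered base pairs, 1.53% of the gap base pairs and 2.71% of the whole span. With them the values were 3.57, 1.58 and 3.15%.

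The 5 longest domains without H3K4me3 were each covered over less than the 86.8% median of domains of 150 kb or more. Just below that class, the 149.3 kb domain on chromosome 6 described above also held none and was covered over 97.5%. The domain on chromosome 9 from 61314869 to 61621927 spanned 307.1 kb, and 97 H3K27me3 regions covered 85.6% of it. The next 4 were a 232.8 kb domain on chromosome 4 (134507175 to 134740023) covered over 73.0%, a 232.5 kb domain on chromosome 5 (112257196 to 112489710) covered over 80.2%, a 219.8 kb domain on chromosome 11 (118348382 to 118568214) covered over 80.03% and a 152.9 kb domain on chromosome 9 (57859004 to 58011928) covered over 79.4%. Each held at least 2 H3K27me3 regions at the top score. The first had its next H3K4me3 regions 60.9 and 138.7 kb away, whereas the chromosome 4 domain had one 4.55 kb from its left border.

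**Figure D3:**
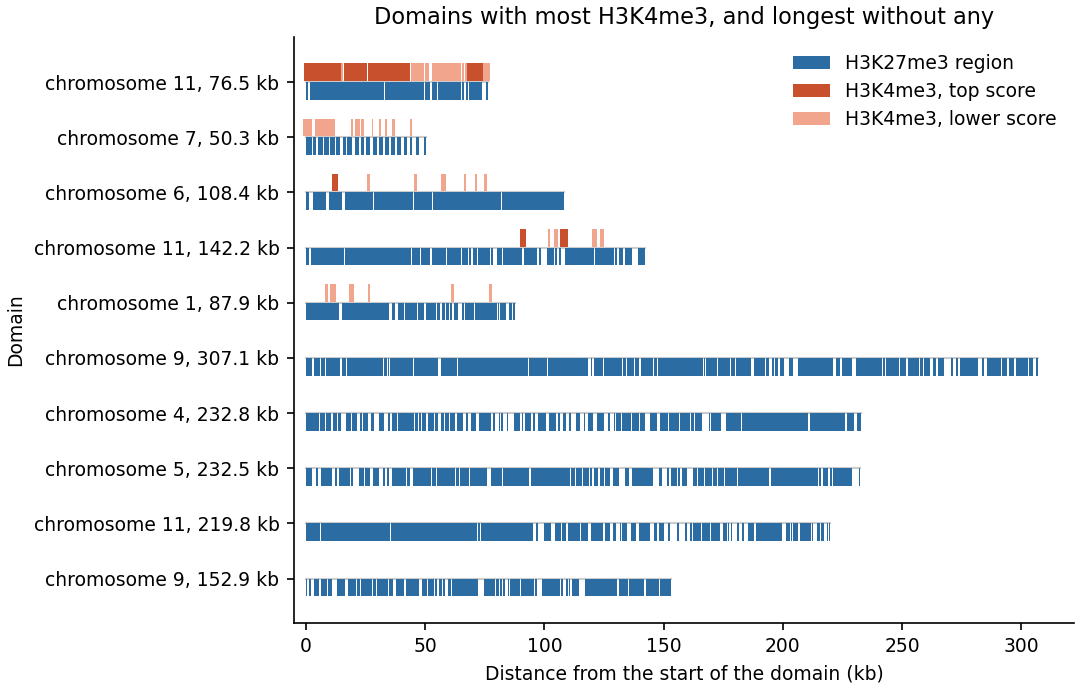
Each row is 1 domain drawn to scale from its start (kb), with H3K27me3 regions in blue and H3K4me3 regions above them in red (top score) or pale red (lower score). The upper 5 rows are the domains with most H3K4me3 regions, from 17 down to 6, and the lower 5 are the longest with none, from 307.1 to 152.9 kb.

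Where a domain held several H3K4me3 regions, they were often close together. Neighbouring regions in a domain were a median of 12.3 kb apart (quartiles 2.93 and 33.8 kb, 322 pairs), and 103 pairs were less than 5 kb apart. The longest stretch of a domain free of H3K4me3 had a median of 55.5 kb over the 414 domains. In the 294 domains with H3K4me3 it took a median of 63.0% of the span.

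Most borders had no H3K4me3 just outside, and the share that did was close to that of shorter domains. Of the 828 borders, 96 had H3K4me3 in the first 5 kb outside, or 11.6% (9.59 to 13.95%). An H3K4me3 region crossed 36 of them (4.35%), and 60 had one only beyond the border. Neither border had H3K4me3 in that window in 328 domains, 1 border did in 76, and both did in 10. It was found there at 73 of the 294 domains with H3K4me3 inside (24.8%) and at 13 of the 120 without (10.8%, 6.44 to 17.7%), but a region that crosses a border counts on both sides by definition. Counting only regions wholly outside, the numbers were 47 of 294 (15.99%, 12.2 to 20.6%) and 13 of 120, a difference of 5.15 points whose interval takes in 0 (-2.63 to 11.5). No H3K4me3 was found inside or within 5 kb in 107 domains (25.8%). For comparison, 10.5% (9.84 to 11.2%) of the borders of domains of 10 to 50 kb had H3K4me3 in the first 5 kb outside. Of the windows from 5 to 10 kb outside the 828 borders, 9.78% (7.94 to 12.0%) held H3K4me3.

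The kind of H3K4me3 region changed across the border. In the first 5 kb outside, top-score regions had a density of 11.4 per Mb (8.34 to 15.1), and in the first 5 kb inside 4.35 per Mb (2.58 to 6.87). Lower-score regions had 7.73 per Mb outside (5.29 to 10.9) and 11.8 per Mb inside (8.76 to 15.6), intervals that overlap. With a shorter gap, as given below, their order was the other way, but in few domains and without an interval. The top-score share was 59.5% of 79 midpoints outside and 26.9% of 67 inside, a difference of 32.6 points (16.6 to 46.3). Over all autosomal H3K4me3 regions the share is 53%. In density the outside lay above the autosomal 4.52 per Mb for top-score and 4.01 per Mb for lower-score regions, while the interval of top-score regions inside takes in 4.52. The step in share was not particular to long domains. At borders of domains of 10 to 50 kb it was 61.3% outside and 28.4% inside, a difference of 32.9 points (28.0 to 37.6), with 8.88 and 7.26 top-score regions per Mb. The 35 regions that crossed a border had a median width of 2784 bp, and 68.6% (52.0 to 81.4%) were at the top score.

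The rule leaves at least 3 kb free of H3K27me3 outside each border, and its part in the H3K4me3 found there was not tested. H3K27me3 regions covered 9.53% of the first 5 kb outside.

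Further from the domains the H3K4me3 density did not return to the autosomal mean within 100 kb. The percentage of base pairs in H3K4me3 was 4.19% in the first 5 kb outside, 3.25% from there to 10 kb, 3.63% from 10 to 25 kb, 4.001% from 25 to 50 kb and 4.28% from 50 to 100 kb. The autosomal mean was 1.87% and the value inside 3.15%. Top-score regions had densities of 7.97 to 10.05 per Mb from 5 to 100 kb outside, against the autosomal 4.52. Around domains of 10 to 50 kb the values were alike, from 3.38 to 4.10% of base pairs. Windows of neighbouring domains can overlap, and a region near several borders is counted at each.

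**Figure D4:**
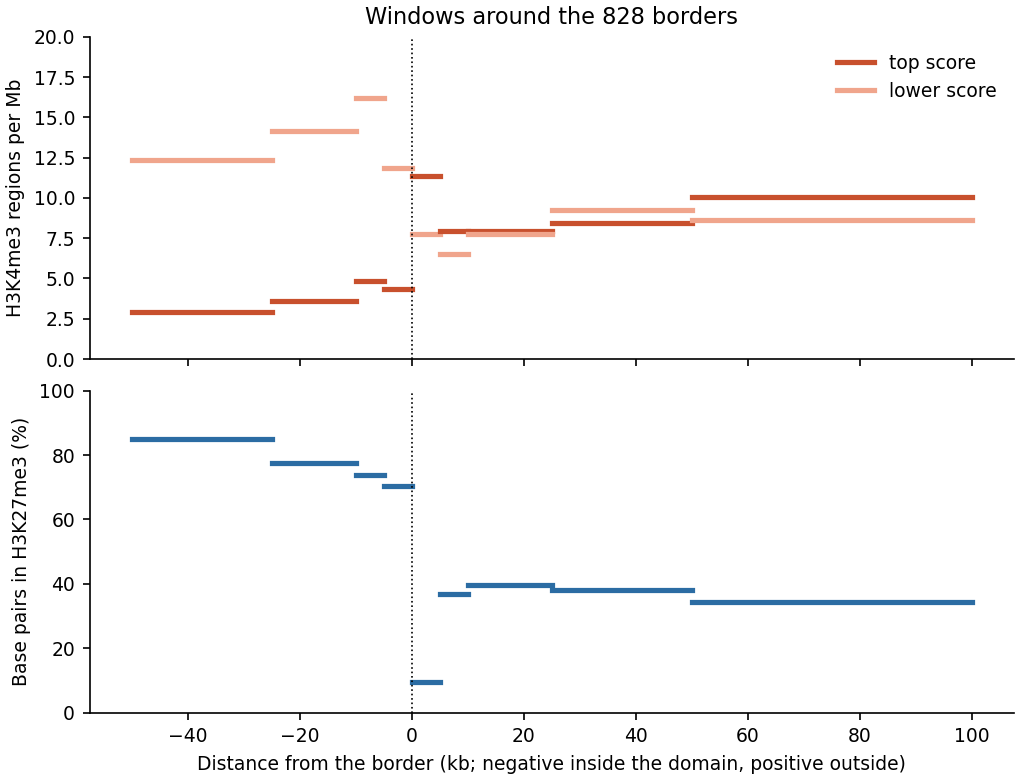
Windows are placed by distance from the 828 borders (kb, inside to the left of 0 and outside to the right). The upper panel gives H3K4me3 midpoints per Mb by score, with top-score regions at 4.35 per Mb just inside and 11.4 per Mb just outside, and the lower panel gives the percentage of base pairs in H3K27me3. Inside windows at 25 to 50 kb come from 204 borders of domains of 100 kb or more.

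H3K27me3 did not end at the borders. It took up 9.53% of the first 5 kb outside, of which at least 3 kb is free by the rule, then 37.0% from there to 10 kb, 39.7% from 10 to 25 kb and 34.5% from 50 to 100 kb, against an autosomal mean of 6.01%. The next H3K27me3 region lay a median of 4.89 kb from the border and within 10 kb at 658 of 828 borders (79.5%). In the 50 kb on both sides of a domain H3K27me3 had a median cover of 35.7%. Only 22 domains (5.31%) had no H3K27me3 within 10 kb on either side. At 425 borders (51.3%) it lay within 5 kb, so many borders were interruptions only a little longer than the rule allows.

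Set against its own surroundings, somewhat fewer domains had more H3K4me3 than had less. H3K4me3 took up a larger share of the domain than of the 50 kb on both sides in 171 domains (41.3%, 36.7 to 46.1%) and a smaller share in 203 (49.0%, 44.2 to 53.8%), with none in either in 40. These intervals overlap, and the medians were 2.19% inside and 2.23% in the flanks. The next H3K4me3 region beyond a border was a median of 50.1 kb away (quartiles 19.8 and 102 kb).

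Many domains lay near another. The distance to the nearest other domain had a median of 136 kb (quartiles 17.5 and 684 kb) and ran from 3006 bp to 58.8 Mb. Another domain was within 10 kb of 85 domains (20.5%), within 100 kb of 188 (45.4%) and within 1 Mb of 325 (78.5%). The closest pair lay on chromosome 8, where domains ending at 122844229 and starting at 122847236 were 3006 bp apart, so a gap limit 6 bp longer would have joined them. The next were on chromosome 4 (ending at 130474738 and starting at 130477799, 3060 bp) and on chromosome 9 (61311704 and 61314869, 3164 bp). The short intervals were mostly empty of H3K4me3. An interval shorter than 2 times the gap limit of 3 kb cannot hold an H3K27me3 region, because of the rule. H3K4me3 was found in 2 of the 46 intervals of up to 10 kb (4.35%), in 10 of the 33 of 10 to 50 kb, and in 51 of the 71 of 50 to 200 kb. A longer interval has more room for a region.

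Groups of near domains were found on several chromosomes. With 100 kb as the limit, the largest group had 8 domains on chromosome 4 between 139279786 and 140053684, which filled 80.6% of that stretch and held 5 H3K4me3 regions. With 1 Mb as the limit it had 16 domains on chromosome 4 between 138002563 and 141838049, and 14 on chromosome 8 between 122526148 and 126730336 formed the next. Over the 19 autosomes the mean density was 0.165 ± 0.0962 domains per Mb (SD between chromosomes). Chromosome 4 had 54 domains (0.347 per Mb), chromosome 2 had 51, chromosome 5 had 40 and chromosome 11 had 37. These 4 chromosomes, named after their counts were seen, held 182 domains (44.0%) on 24.7% of the autosomal length. They were also rich in the mark and in shorter domains. In the same order, H3K27me3 covered 8.46, 7.71, 7.70 and 10.9% of them, against 6.01% of the autosomes. They held 347, 355, 305 and 419 of the 4009 domains of 10 to 50 kb. Chromosome 18 had 2, chromosome 16 had 4 and chromosome 3 had 6.

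The number and ends of the domains depended strongly on the gap allowed. With a gap of 1 kb, 77 domains of 50 kb or more were left, with a median covered share of 94.5%. With 10 kb there were 1436, which spanned 160.7 Mb at a median cover of 44.9%. The share with H3K4me3 moved little in comparison, at 70.1% (59.2 to 79.2%) with 1 kb, 71.0% with 3 kb and 73.3% (71.0 to 75.6%) with 10 kb.

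At 1 kb a domain fell into a median of 7 pieces (quartiles 5 and 10). The longest piece kept a median of 36.2% of the span, 67 domains (16.2%) still held a piece of 50 kb or more, and 402 held one of at least 10 kb. The single domain that stayed whole was the most fully covered one on chromosome 6. The 232.8 kb domain on chromosome 4 named above broke into 29 pieces, the longest of 34.6 kb, and the 380 kb domain on chromosome 8 (123239640 to 123619627) into 22. The 219.8 kb domain on chromosome 11 broke into 21, the longest of 95.2 kb.

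At 10 kb the 414 domains lay in 312 domains, most of them longer. The span grew by a median of 2.48 times, 268 domains became at least 2 times longer, 22 did not change, and 175 came to share a domain with another. The longest result was 1036.6 kb on chromosome 9, from 60717538 to 61754172, which took in 4 of the 414, held 8 H3K4me3 regions and was covered over 73.1%. Its members included the 307.1 kb domain without H3K4me3. Another, of 881.8 kb on chromosome 4 from 139179166 to 140060968, took in 8.

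**Figure D5:**
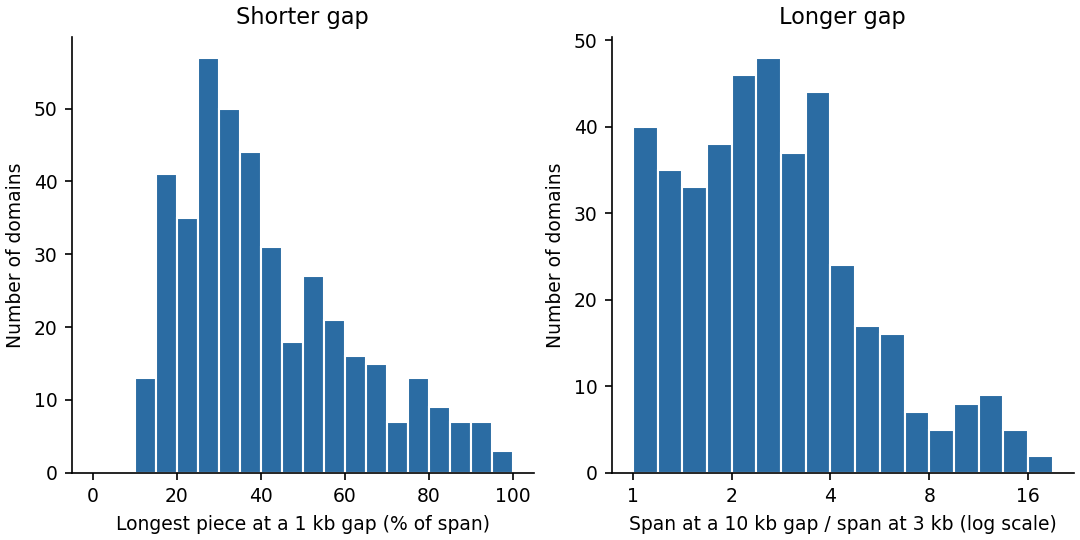
The left histogram gives, for the 414 domains, the longest piece left at a gap of 1 kb as a percentage of the span (median 36.2%). The right histogram gives the span of the domain that holds each of them at a gap of 10 kb divided by its span at 3 kb, on a log scale (median 2.48, highest 17.3).

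The place of H3K4me3 moved with the gap as well. The outermost part held 11.4% (6.79 to 18.5%) of midpoints at 1 kb, 18.96% at 3 kb and 24.3% (22.6 to 25.99%) at 10 kb. The innermost held 26.3% (19.1 to 35.1%), 19.97% and 17.3%. Whether H3K4me3 appears central or peripheral thus depends on the gap. The change in top-score regions across the border kept its direction, at 13.0 per Mb outside and 1.30 inside with 1 kb, 11.4 and 4.35 with 3 kb, and 18.1 and 7.80 with 10 kb. For lower-score regions the order at 1 kb was the other way. Those regions had 11.7 per Mb in the first 5 kb outside and 5.19 inside with 1 kb, 7.73 and 11.8 with 3 kb, and 5.08 and 14.6 with 10 kb. The 1 kb values of both kinds rest on the borders of only 77 domains. No interval was computed for them, so whether the order of lower-score regions turns is not settled.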

How the data were processed

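The series holds 3 samples, of which the H3K4me3 and H3K27me3 libraries (1 each) were used. For each mark the regions the authors deposited come with a score, 21998 for H3K4me3 and 117512 for H3K27me3. The score has no stated scale and was compared only within a list. The deposited files name each region as a MACS peak, and the submitters' processing notes name Bowtie 1.1.2 and mm9. Version, threshold and control of MACS: not given in the sources used here. Region numbers of the H3K27me3 list run to 117514, 2 are absent, and none of these has neighbours in or within 3000 bp of a domain.

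Domains were merged and measured in Python 3.11.15 with NumPy 2.4.6, pandas 2.3.3 and SciPy 1.17.1. Counts and cover, checked with bedtools 2.31.1, differed by 0. On simulated lists with 300 domains, 8 of 8 quantities were recovered exactly. With 1 library per mark no test between samples was possible, and shares and densities were compared by their intervals. The domains and lists were chosen with earlier results of these data known. Domains were named by rule: those with most H3K4me3, longest without it, highest and lowest cover, most pieces at 1 kb, most length gained at 10 kb, widest single region and closest pairs. Gene positions and sequence on mm9 were not used here, so no gene is named. Alternatives varied the gap, the minimum span, the overlap rule and the scores.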

Additional observations from a re-analysis of the deposited data

How the results depend on the processing

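Of 92 values recomputed under the alternatives for the 10 results with an interval, 57 stayed within the interval of the reported value and 35 did not. The medians had intervals taken from ranks. For the share of gap base pairs, Wilson limits of the share of gaps were scaled to the value. For the H3K4me3 cover outside borders, those of the share of borders touched were scaled. The tally is therefore only a rough guide. The number of domains has no interval and was called moved when it changed by over 1.5 times. The number of domains, 414 as reported, was 77 with a gap of 1 kb, 1436 with 10 kb, 1068 with a minimum span of 30 kb, 102 with 100 kb and 232 with only the upper 50% of H3K27me3 regions by score. In the same order the median covered share was 94.5, 44.9, 74.1, 83.5 and 83.8%, the share of gap base pairs in gaps of 1 kb or more was 0.280, 87.5, 65.0, 56.8 and 64.9%, and the median distance to the nearest domain was 357, 87.9, 61.2, 512 and 267 kb. Gap, span and score limits set which domains exist, and so their number. With a gap limit of 1 kb, only a gap of exactly 1 kb can count as 1 kb or more. How far the other values follow from the construction was not tested. The share with H3K4me3 was 59.7% at 30 kb and 81.4% at 100 kb. H3K4me3 regions sharing at least 1 bp numbered 19.6 and 13.3 per Mb there, against 17.0 per Mb in the 414 domains. With only top-score H3K4me3 regions, which that alternative keeps by construction, the share was 27.3% and this density 3.73 per Mb. Counted by midpoint, as in the results above, the 414 domains had 16.5 per Mb in all and 3.29 per Mb at the top score. The outermost part held 11.4% at a gap of 1 kb, 24.3% at 10 kb and 24.4% of top-score H3K4me3 regions. The innermost held 26.3% at 1 kb, 15.9% with upper-score H3K27me3 regions and 13.4% of top-score H3K4me3 regions. H3K4me3 took up 5.09% of the first 5 kb outside at 1 kb, 5.91% at 10 kb, 5.19% with a span of 100 kb and 3.23% with top-score regions only. Borders with H3K4me3 within 5 kb were 15.7% at 10 kb and 7.25% with top-score regions only. The top-score share inside was 17.4% at 1 kb and 28.3% at 10 kb. Beyond what each construction fixes, the cause was not tested. Leaving out domains in which H3K4me3 covers 20% or more of the span, chosen after seeing the data, left 410 domains and the other 6 values recomputed within their intervals. No paired analysis was possible because 1 library was made per mark. The depth of the libraries, on which the calling of weak regions and so of gaps rests, is unknown.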

Other observations

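The widest single H3K27me3 region in a domain spanned 89.2 kb, in a 115.1 kb domain on chromosome 8 from 126060716 to 126175786. This domain is among those described above in which an H3K4me3 region shares its ends with an H3K27me3 region. Of that domain's 15 H3K27me3 regions 1 was at the top score, and 5 H3K4me3 regions covered 78.4% of the span, 3 of them at the top score. The next widest were 45.4 kb on chromosome 11 in the domain from 96088639 to 96238031, with 1 H3K4me3 region over 0.495% of the span, and 36.6 kb on chromosome 15 in the domain from 97802280 to 97861828, with 2 over 5.41%. On X the same rule gave 2 domains of 50 kb or more, which were not counted among the 414. The 3 domains that gained most length at a gap of 10 kb all joined the 1036.6 kb stretch of chromosome 9. They were those from 60838375 to 60925473, from 61661810 to 61754172 and from 61152811 to 61311704, whose spans grew 11.9, 11.2 and 6.52 times.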
